A study of Rattus norvegicus with 9 samples.

Results

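Mast cells and basophils are rare in spleen, and their genes were described here in rat spleen through 9 members: Cpa3, Mcpt1, Tpsab1, Tpsb2, Fcer1a, Ms4a2, Hdc, Kit and Gata2. They were chosen by name as genes of these cells, and all 9 were found among the 34408 gene entries of the deposited tables, each once. RNA sequencing covered 9 libraries of 3 groups with 3 libraries each, and all animals carry the genotype label WT. In the TAA+celecoxib group, rats had thioacetamide (TAA), a liver toxin used to induce cirrhosis, as in the TAA group, and 20 mg/kg/day of celecoxib, an inhibitor of cyclooxygenase 2, during the final 8 weeks. In the TAA group, 200 mg/kg of TAA was given intraperitoneally per 3 days over 8 weeks, followed by 100 mg/kg per 3 days over a further 8 weeks. The control group carries only the word control; strain, sex, age and any vehicle are not given in the labels used here. The labels name both spleen and splenocytes, and the B cell gene Ms4a1 (270 to 531 CPM) and the T cell gene Cd3e (45.5 to 124 CPM) were present in every library.

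Mast cells and basophils are the main cells that bind IgE through its high-affinity receptor, FcεRI, and release histamine and granule proteases when that receptor is crosslinked. Mast cells mature in tissues under stem cell factor, the ligand of KIT, and fill their granules with carboxypeptidase A3, chymases and tryptases. Basophils circulate and hold fewer such proteases, and the transcription factor GATA2 is needed for both lineages. KIT and GATA2 are also made by blood progenitors, so these genes are not limited to mast cells and basophils in an organ with blood formation, as the rodent spleen is. In RNA of mixed cells, a change in the number of cells of a type cannot be told apart from a change in RNA per cell.

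Library totals were 14211789 to 19014761 counts, so that 1 count was worth 0.0522 to 0.071 CPM (counts scaled to library size by TMM). TAA+celecoxib 1 and control 1 stood apart from the other 7 libraries along principal component 1 (31.3% of the variance), with scores of -60.3 and -63.2 against -1.73 to 50.1. Nothing in the labels states that libraries of a group came from separate animals, so p-values measure only the spread between these libraries. By edgeR's quasi-likelihood test with Benjamini-Hochberg adjustment, 0 of 15954 genes passed an adjusted p of 0.05 in any of the 3 comparisons. At an unadjusted p under 0.05 there were 957 genes in TAA against control, 812 in TAA+celecoxib against TAA and 803 in TAA+celecoxib against control, and DESeq2, run as an alternative, called 55, 25 and 26 genes in that order. The members' differences below are therefore described and not called.

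The region upstream of Cpa3 and of Mcpt1 is shown with that of Hdc, whose pattern was the farthest from theirs. Apart from Gata2 and Kit, which varied little, Cpa3 and Mcpt1 were the pair of members with the smallest difference in pattern. Sequences come from RefSeq on the build GRCr8, run from 250 bases before to 50 bases after an annotated start, and stand at chr2:104673188-104673487 on the minus strand, chr15:33841356-33841655 on the plus strand and chr3:134318655-134318954 on the minus strand. Capitals mark matches on either strand to the words TGATAA or AGATAA, and likewise to TGATAG or AGATAG, forms of the site bound by GATA factors.
Cpa3: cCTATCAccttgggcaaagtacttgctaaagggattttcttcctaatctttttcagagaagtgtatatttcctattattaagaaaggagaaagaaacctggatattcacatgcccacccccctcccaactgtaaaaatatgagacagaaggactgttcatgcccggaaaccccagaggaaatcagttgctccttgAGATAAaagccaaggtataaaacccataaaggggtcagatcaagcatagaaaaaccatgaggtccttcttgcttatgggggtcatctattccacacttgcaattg
Mcpt1: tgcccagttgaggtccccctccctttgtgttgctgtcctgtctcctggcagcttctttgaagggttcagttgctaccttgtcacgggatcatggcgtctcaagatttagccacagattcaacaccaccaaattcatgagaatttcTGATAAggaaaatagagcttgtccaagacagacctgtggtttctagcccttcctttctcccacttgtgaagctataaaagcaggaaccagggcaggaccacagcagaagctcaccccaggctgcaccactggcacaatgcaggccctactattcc
Hdc: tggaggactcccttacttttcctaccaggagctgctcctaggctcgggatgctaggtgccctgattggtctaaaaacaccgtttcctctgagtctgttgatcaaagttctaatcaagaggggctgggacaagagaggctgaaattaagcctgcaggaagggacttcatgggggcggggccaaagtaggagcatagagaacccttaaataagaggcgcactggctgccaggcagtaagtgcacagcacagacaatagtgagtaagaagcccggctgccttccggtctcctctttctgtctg

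In Cpa3 a match began at position -55 on the plus strand and another at -249 on the minus strand, counted from the start, and in Mcpt1 a match began at -105. The Hdc window held none of these words. Windows were found for 8 members, and 3 of the 8 held a match (Cpa3, Mcpt1 and Fcer1a), while 30.3% of all 33469 windows of 300 bases did. Ms4a2 had no window. The Mcpt1 window belongs to the RefSeq gene of 2569 bases, whereas the counted entry spans 172357 bases. It therefore need not hold the start of the counted RNA. Fcer1a, with a match, had overlapping groups, and Tpsb2, without a match, had its highest counts in TAA. Whether matches go with a pattern was not tested. A match is a stretch of letters and not a measured binding site.

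Levels between genes were compared per gene length, as FPKM. Averaged over the 9 libraries, Kit was the most abundant member at 5.92 FPKM, above 40.6% of the genes tested, followed by Gata2 at 4.62 FPKM and Mcpt1 at 3.03 FPKM. Hdc at 1.96 FPKM and Cpa3 at 1.95 FPKM each lay above 21.9% of the genes tested. Ms4a2 was at 0.931 FPKM and Fcer1a at 0.591 FPKM, above 11.8% and 7.41% of the genes tested. Both tryptase genes were below 0.1 FPKM. The whole set thus lay in the lower part of the expression range.

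The order of the members differed between groups. In TAA+celecoxib spleens Kit came first at 5.86 ± 1 FPKM (SD, n = 3), then Gata2 at 4.18 ± 0.777, Hdc at 2.08 ± 1.20, Mcpt1 at 1.89 ± 1.40, Cpa3 at 1.17 ± 0.695, Ms4a2 at 0.67 ± 0.111 and Fcer1a at 0.542 ± 0.339 FPKM. In TAA spleens Mcpt1 came first at 5.91 ± 1.28 FPKM, then Kit at 5.58 ± 0.446, Gata2 at 4.99 ± 0.37, Cpa3 at 4.07 ± 1.87, Ms4a2 at 1.47 ± 0.248, Hdc at 1.26 ± 0.501 and Fcer1a at 0.691 ± 0.287 FPKM. In control spleens the order was Kit at 6.31 ± 0.863 FPKM, Gata2 at 4.69 ± 1.52, Hdc at 2.53 ± 0.91, Mcpt1 at 1.28 ± 0.164, Ms4a2 at 0.649 ± 0.378, Cpa3 at 0.613 ± 0.262 and Fcer1a at 0.541 ± 0.345 FPKM. In the TAA group the first 4 members overlapped in range, and Cpa3, with 2.33 FPKM at the lowest, did not overlap Ms4a2, with 1.66 FPKM at the highest. In the controls Hdc, with 1.99 FPKM at the lowest, did not overlap Mcpt1, with 1.47 FPKM at the highest, nor did Mcpt1 (1.17 FPKM at the lowest) overlap Ms4a2 (0.999 FPKM at the highest), and Ms4a2, Cpa3 and Fcer1a overlapped one another. In TAA+celecoxib spleens Gata2 did not overlap Hdc (3.38 FPKM at the lowest against 3.1 FPKM at the highest), and other neighbours overlapped.

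**Figure D1:**
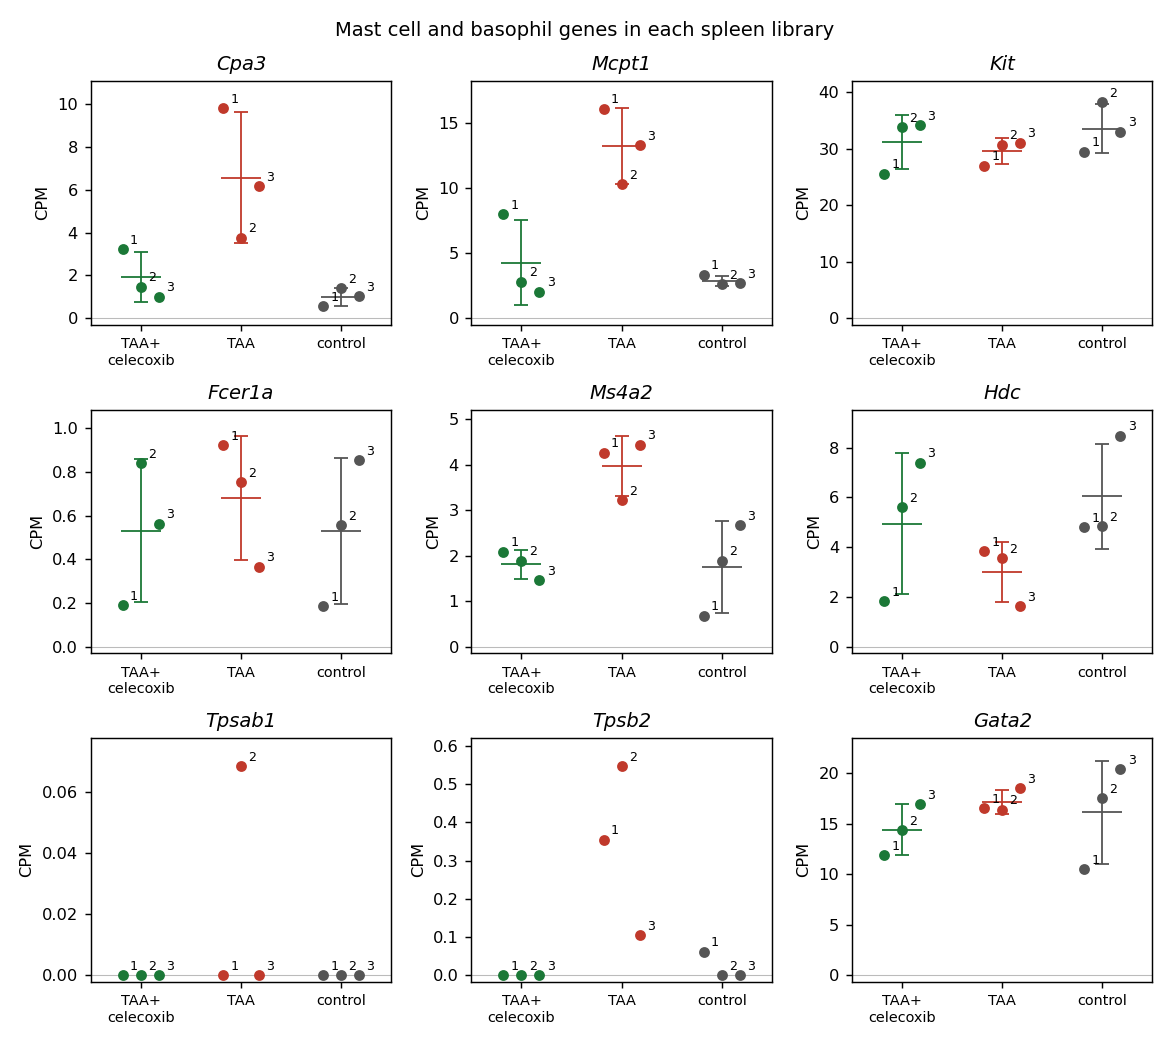
CPM of each member in each library, on a linear axis of its own per gene, with the library number beside each point; horizontal bars are the group mean and whiskers the SD (n = 3), left out for Tpsab1 and Tpsb2, which had mostly 0 counts. Cpa3, Mcpt1 and Ms4a2 had all 3 TAA libraries above all libraries of the other groups, while Kit spanned only 25.6 to 38.2 CPM.

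Among the granule proteases, Cpa3 encodes mast cell carboxypeptidase A (ENSRNOG00000011181, chromosome 2, 105016626 to 105047984 as the files give it). Its counts were 51, 21 and 18 in TAA+celecoxib 1 to 3, against 138, 55 and 118 in TAA 1 to 3, and the control libraries had 9, 25 and 18. Scaled to CPM, these were 3.23, 1.47 and 1.01 in TAA+celecoxib, 9.8, 3.77 and 6.16 in TAA, and 0.555, 1.39 and 1.02 in control. Every TAA library was above every library of both other groups, TAA+celecoxib 1 came nearest to them, and TAA+celecoxib overlapped control. TAA stood above control by a log2 fold change of 2.72 ± 0.56 (SE; unadjusted p = 0.000971, adjusted p = 0.788 by edgeR), the gene with rank 19 by p among all genes tested. DESeq2 called this difference (adjusted p = 0.00178); over all alternatives the adjusted p ran from 0.00178 to 1.

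Mcpt1 encodes a chymase of rat mast cells (ENSRNOG00000020625, chromosome 15, 34862266 to 35034622 as the files give it). It had 126, 40 and 36 counts in TAA+celecoxib 1 to 3, against 226, 150 and 254 in TAA 1 to 3, and 54, 47 and 47 counts in control 1 to 3. In CPM these were 7.98, 2.81 and 2.03 in TAA+celecoxib, 16.1, 10.3 and 13.3 in TAA, and 3.33, 2.61 and 2.67 in control. The 3 controls lay close together, the TAA libraries were all above the rest, and TAA+celecoxib 1 lay between the controls and TAA. TAA exceeded control by a log2 fold change of 2.20 ± 0.48 (SE; unadjusted p = 0.00139, adjusted p = 0.788 by edgeR, rank 24), which DESeq2 called (adjusted p = 0.00252; 0.00252 to 1 over all alternatives).

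The Mcpt1 entry in the files spans 172357 bases, whereas the RefSeq gene spans 2569 bases, and on the same strand it contains the related copies Mcpt1l4 (182 counts over 9 libraries) and Mcpt1l3 (11 counts). Reads of near-identical chymase copies could be split or pooled under it, so its level and its FPKM are uncertain. Mcpt1l4, named after its values were seen, had 1 ± 0.339 CPM in TAA+celecoxib spleens, 1.45 ± 0.543 CPM in TAA spleens and 1.24 ± 0.383 CPM in control spleens, with overlapping groups.

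The tryptase genes had almost no counts. Tpsb2, which encodes a tryptase of mast cell granules (ENSRNOG00000018611, chromosome 10, 14722756 to 14724600), had 0 counts in all 3 TAA+celecoxib libraries, 5, 8 and 2 counts in TAA 1 to 3, and 1 count in control 1 and 0 in the other 2 controls. Over the group totals this was 0 counts in TAA+celecoxib (exact 95% Poisson interval 0 to 3.69), 15 in TAA (8.4 to 24.7) and 1 in control (0.0253 to 5.57). The ratio of TAA to control was 16.1 per total count, with an exact 95% interval of 2.47 to 676. These intervals cover counting error only. Tpsb2 lay below the filter on low counts. Without any filter (edgeR, 22879 genes), its unadjusted p was 0.0237 for TAA against control (adjusted p = 0.809). For TAA+celecoxib against TAA it was 0.00852 (adjusted p = 0.867). Tpsab1, the second tryptase gene (ENSRNOG00000024181, chromosome 10, 14701253 to 14703668), had 1 count in all, in TAA 2, and supports no comparison.

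The IgE receptor is built of an alpha chain, which binds IgE, a beta chain, which amplifies the signal, and gamma chains. Ms4a2, which encodes the beta chain (ENSRNOG00000020993, chromosome 1, 227957302 to 227965386), had 33, 27 and 26 counts in TAA+celecoxib 1 to 3, against 60, 47 and 85 in TAA 1 to 3, and 11, 34 and 47 counts in control 1 to 3. In CPM these were 2.09, 1.89 and 1.47 in TAA+celecoxib, 4.26, 3.22 and 4.44 in TAA, and 0.678, 1.89 and 2.67 in control. TAA did not overlap either other group, and control 1 was the lowest of all 9 libraries. TAA exceeded control by a log2 fold change of 1.18 ± 0.45 (SE; unadjusted p = 0.0274, adjusted p = 0.788 by edgeR), which was 0.80 without control 1 and 1.62 without control 3.

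Fcer1a, which encodes the alpha chain (ENSRNOG00000009177, chromosome 13, 91730925 to 91737053), was near the limit of detection. It had 3, 12 and 10 counts in TAA+celecoxib, 13, 11 and 7 in TAA, and 3, 10 and 15 in control, and all groups overlapped. Its log2 fold change was 0.33 ± 0.68 (SE) for TAA against control and -0.34 ± 0.69 for TAA+celecoxib against TAA (adjusted p = 0.909 and 0.942 by edgeR). The 2 lowest libraries, TAA+celecoxib 1 and control 1 with 3 counts each, were those that stood apart along principal component 1. Fcer1g, the gamma chain, which many myeloid cells make as part of other Fc receptors and which was named after its values were seen, was at 278 ± 95 CPM in TAA+celecoxib spleens, 327 ± 51.3 CPM in TAA spleens and 304 ± 96.5 CPM in control spleens.

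Hdc encodes histidine decarboxylase, the enzyme that makes histamine (ENSRNOG00000010262, chromosome 3, 119057517 to 119075619), and unlike the proteases it was lowest in the TAA group. It had 29, 80 and 131 counts in TAA+celecoxib 1 to 3, against 54, 52 and 31 in TAA 1 to 3, and 78, 87 and 149 counts in control 1 to 3. In CPM these were 1.84, 5.61 and 7.39 in TAA+celecoxib, 3.84, 3.56 and 1.62 in TAA, and 4.81, 4.84 and 8.48 in control. All TAA libraries were below all controls, and the TAA+celecoxib libraries were split, with 1 among the TAA values and the other 2 above them. TAA stood below control by a log2 fold change of -1.01 ± 0.53 (SE; unadjusted p = 0.0892, adjusted p = 0.788 by edgeR), and by -0.69 without control 3.

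Kit encodes the receptor for stem cell factor (ENSRNOG00000002227, chromosome 14, 35072108 to 35149610). Its 380 to 687 counts per library made it the most deeply covered member, with CPM values of 25.6, 33.7 and 34.2 in TAA+celecoxib, 27, 30.7 and 31 in TAA, and 29.5, 38.2 and 33 in control. The groups overlapped, and the highest library was only 1.49 times the lowest, against 17.7 times for Cpa3 and 7.91 times for Mcpt1. Its log2 fold change was -0.18 ± 0.16 (SE) for TAA against control and 0.08 ± 0.16 for TAA+celecoxib against TAA (adjusted p = 0.808 and 0.944 by edgeR).

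Gata2 (ENSRNOG00000012347, chromosome 4, 120133713 to 120142488) had 188, 205 and 300 counts in TAA+celecoxib, 233, 239 and 354 in TAA, and 170, 315 and 358 in control. As CPM this was 11.9, 14.4 and 16.9 in TAA+celecoxib, 16.6, 16.4 and 18.5 in TAA, and 10.5, 17.5 and 20.4 in control. The TAA libraries lay inside the range of the controls, and the lowest values were again those of TAA+celecoxib 1 and control 1. Its log2 fold change was 0.09 ± 0.25 (SE) for TAA against control, which was -0.14 without control 1, and -0.25 ± 0.25 for TAA+celecoxib against TAA (adjusted p = 0.936 and 0.903 by edgeR).

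As a list in TAA against control, 0 of 7 tested members passed an adjusted p of 0.05 (0% of all genes), and 3 of 7, Cpa3, Mcpt1 and Ms4a2, were higher at an unadjusted p under 0.05, where 2.85% of all genes tested were. The groups did not overlap for these 3 in the higher direction, as for 6.94% of all genes, and for Hdc in the lower direction, as for 7.89%. The members' median log2 fold change was 0.33, against 0.00 for all genes tested, and 5 of 7 were higher by any amount, as 50.2% of all genes were. By DESeq2, 2 of 7 members were called, Cpa3 and Mcpt1, against 0.345% of all genes, that is 55 genes. DESeq2 gave no adjusted p for Fcer1a here, so Fcer1a could not be called. At an unadjusted p under 0.05, edgeR had 957 genes in this comparison.

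**Figure D2:**
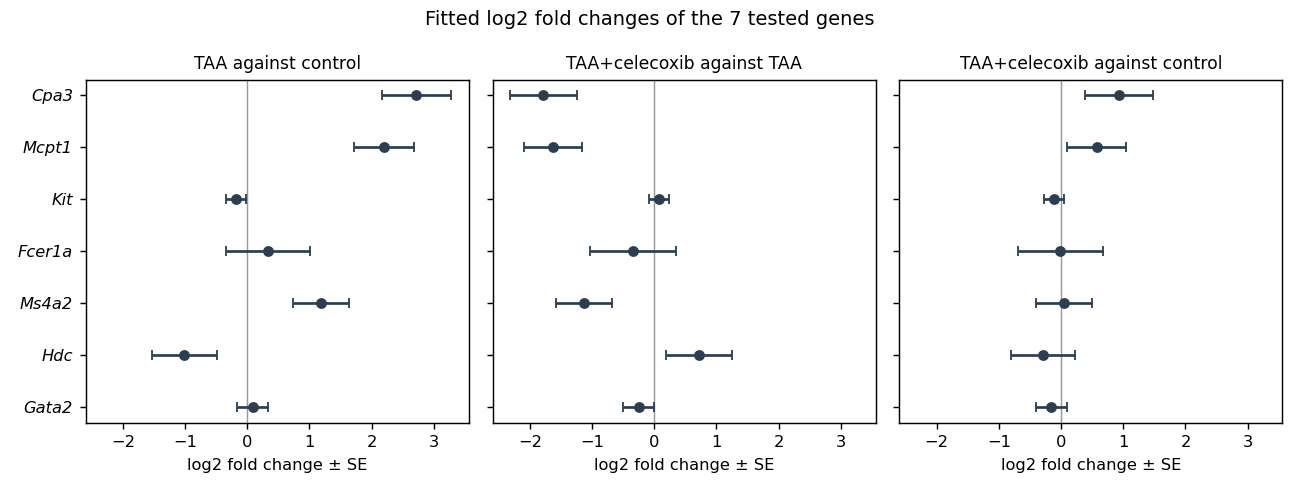
Log2 fold change (horizontal axis) with its SE for the 7 tested members in the 3 comparisons, from edgeR's fit of all 9 libraries. Cpa3 and Mcpt1 lay at 2.72 and 2.20 for TAA against control and at -1.78 and -1.63 for TAA+celecoxib against TAA, while Kit lay within 0.18 of 0 in all 3 panels.

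The comparison of TAA+celecoxib with TAA asks whether celecoxib altered these genes in TAA-treated rats. Cpa3 stood lower in TAA+celecoxib by a log2 fold change of -1.78 ± 0.54 (SE; unadjusted p = 0.00913, adjusted p = 0.89 by edgeR). Mcpt1 stood lower by -1.63 ± 0.47 (unadjusted p = 0.00729, adjusted p = 0.89) and Ms4a2 by -1.13 ± 0.45 (unadjusted p = 0.0331, adjusted p = 0.89). None of the 3 passed, and DESeq2 called 0 of 7 members, against 0.157% of all genes (adjusted p = 0.218 for Cpa3, 0.134 for Mcpt1 and 0.645 for Ms4a2). TAA+celecoxib 1 held the highest protease values of its group: without it the log2 fold change was -2.40 for Cpa3 and -2.45 for Mcpt1, the adjusted p being 0.999 and 0.396. Hdc was higher in TAA+celecoxib by 0.72 ± 0.53 (adjusted p = 0.89), and its groups overlapped. For Hdc the value was 1.12 without TAA+celecoxib 1, 0.31 without TAA+celecoxib 3 and 0.42 without TAA 3.

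As a list in this comparison, 0 of 7 members passed an adjusted p of 0.05 (0% of all genes). Cpa3, Mcpt1 and Ms4a2 were lower at an unadjusted p under 0.05, which held for 2.46% of all genes tested, and 0 members were higher at that p, which held for 2.63% (5.09% in either direction). The same 3 had groups that did not overlap in the lower direction, as 5.03% of all genes did, and 0 members in the higher direction, as 5.87% did. Hdc and Kit, 2 of 7, were higher by any amount, as 51.2% of all genes were. The median over the 7 was -0.34, against 0.01 for all genes. Both comparisons use the same TAA libraries, so their opposite signs are not independent of each other.

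TAA+celecoxib against control shares no TAA library. Here Cpa3 had a log2 fold change of 0.93 ± 0.55 (SE) and Mcpt1 of 0.57 ± 0.47, with adjusted p = 0.912 and 0.937 by edgeR. Both rested on TAA+celecoxib 1: without it the value was 0.32 for Cpa3 and -0.25 for Mcpt1, and without control 1 as well it was 0.03 for Cpa3. Ms4a2 was at 0.05 ± 0.45, Hdc at -0.29 ± 0.52, Kit at -0.11 ± 0.16, Gata2 at -0.16 ± 0.25 and Fcer1a at -0.01 ± 0.68. In this comparison the groups overlapped for all 7 members, where they did not overlap for 9.68% of all genes (5.27% in the higher and 4.42% in the lower direction). By edgeR and by DESeq2, 0 members were called (0% and 0.163% of all genes). At an unadjusted p under 0.05 there were 0 members, against 5.03% of all genes (2.96% higher and 2.07% lower). Cpa3, Mcpt1 and Ms4a2, 3 of 7, were higher by any amount, as 50.2% of all genes were.

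**Figure D3:**
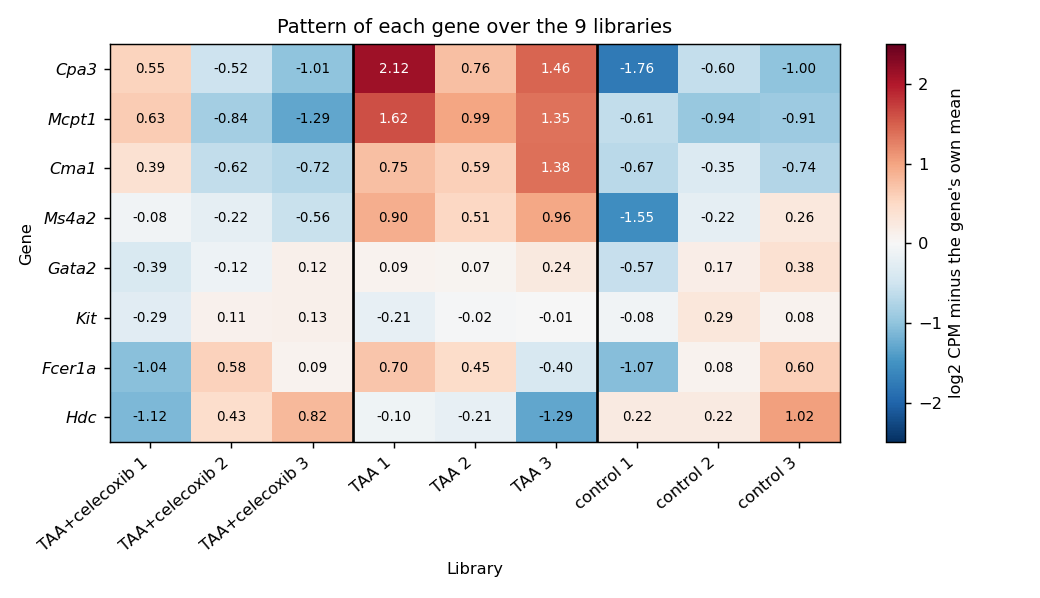
Log2 CPM of each tested member and of the chymase gene Cma1 in each library, after subtraction of the gene's own mean over the 9 libraries; red is above and blue below that mean. Cpa3, Mcpt1 and Cma1 were above their mean in TAA 1 to 3 and in TAA+celecoxib 1 and below it elsewhere, while Hdc was below its mean in those same 4 libraries.

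Over the 9 libraries the members fell into unlike patterns. Likeness was measured as the root mean square difference between centred log2 CPM values, so that 0 means the same pattern. The difference also depends on how much each gene varies, so 2 genes that vary little lie close whatever their patterns. Gata2 and Kit differed by 0.25 and Cpa3 and Mcpt1 by 0.46, whereas Cpa3 and Hdc differed by 1.80, the largest value among the 21 pairs. By this measure Ms4a2 lay nearer to Gata2 (0.58) than to Cpa3 (0.69) or Mcpt1 (0.75), which vary more. Yet the TAA libraries overlapped neither other group for Ms4a2, as for Cpa3 and Mcpt1 and unlike for Gata2. Gata2 and Kit also varied little, with root mean square deviations from their own means of 0.29 and 0.17. Those of Cpa3 and Mcpt1 were 1.21 and 1.07. The 0.25 between Gata2 and Kit was thus as large as their own spread, whereas the 0.46 between Cpa3 and Mcpt1 was well below theirs.

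The nearest genes were sought among tested genes outside the set that carry a gene name. Entries without a symbol or with a placeholder name, such as those starting with LOC or RGD, were left out. Among the genes searched, the nearest to both proteases was Cma1, at 0.44 from Mcpt1 and 0.61 from Cpa3. Cma1 encodes a mast cell chymase, and its entry lies on chromosome 15 as that of Mcpt1 does. The next nearest to Mcpt1 were Ass1, a urea cycle enzyme, at 0.50 and Ttc9 at 0.60, and the next nearest to Cpa3 were Camp, an antimicrobial peptide of neutrophil granules, at 0.66 and Ass1 at 0.68. Dnmt3b, Klhl17 and Rybp were nearest to Kit (0.07 to 0.08) and Lrp6, Armcx3 and Zbtb4 to Gata2 (0.08 to 0.09). These distances describe the 9 libraries and were not tested.

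Other mast cell genes followed the proteases in part. Of 16 listed, 13 were found by symbol and 10 were tested. In TAA against control 9 were higher, as 50.2% of all genes were, and 1 was lower, the median log2 fold change being 0.50. Of the 10, 2 (Cma1 and Rab27b) had TAA above control without overlap, as 6.94% of all genes did. Cma1 was at 4.62, 2.24 and 2.09 CPM across TAA+celecoxib 1 to 3, against 5.97, 5.34 and 9.3 CPM across TAA 1 to 3, and 2.16, 2.72 and 2.05 CPM across control 1 to 3. TAA did not overlap either other group for Cma1, as for Cpa3. Its log2 fold change was 1.57 ± 0.38 (SE) for TAA against control (adjusted p = 0.788 by edgeR) and -1.20 ± 0.37 for TAA+celecoxib against TAA (adjusted p = 0.89). Rab27b, a regulator of granule release, was at 4.27 ± 2.04 CPM in TAA+celecoxib spleens, 5.94 ± 1.01 CPM in TAA spleens and 2.37 ± 1.26 CPM in control spleens. In TAA+celecoxib against TAA, 5 of the 10 were higher and 5 lower, with a median of -0.11. In TAA+celecoxib against control, 9 were higher and 1 was lower, with a median of 0.33, and the groups overlapped for all 10. Mitf, a transcription factor that mast cells need, named after its values were seen, had a log2 fold change of 0.12 ± 0.25 (SE) in TAA against control and 0.03 ± 0.25 in TAA+celecoxib against TAA.

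Genes of the other granulocytes that use related growth factors were also listed. Of 9 other basophil genes, 8 were found and 6 tested, with 5 higher in TAA than in control and a median of 0.39. Il3ra, the alpha chain of the interleukin 3 receptor, was the exception at 14.1 ± 1.77 CPM in TAA+celecoxib spleens, 18.3 ± 3.34 CPM in TAA spleens and 22 ± 1.3 CPM in control spleens, and Csf2rb, the beta chain that it shares with other receptors, was at 161 ± 22.1, 249 ± 104 and 162 ± 23.8 CPM in the same groups. All 6 eosinophil genes were tested, and 5 were higher in TAA than in control with a median of 2.84. Prg2, the eosinophil major basic protein, was at 3.67, 34.1 and 2.09 CPM across TAA+celecoxib 1 to 3, 28.8, 5.75 and 146 CPM across TAA 1 to 3, and 2.03, 2.84 and 7.51 CPM across control 1 to 3. The summed level of the eosinophil genes was highest in TAA 3 (708 CPM), whereas Cpa3 and Mcpt1 were highest in TAA 1.

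Genes upstream and downstream of the 2 receptors had median differences near 0. The 14 IgE receptor signalling genes had a median log2 fold change of 0.10 in TAA against control and -0.01 in TAA+celecoxib against TAA. The smallest unadjusted p values there included that of Lat, an adaptor that T cells also use, at 79.9 ± 32.9 CPM in TAA+celecoxib spleens, 49.9 ± 15.6 CPM in TAA spleens and 99.5 ± 39.1 CPM in control spleens. Of 14 mast cell growth factor and KIT signalling genes, 12 were tested, with medians of 0.04 and -0.04. Kitlg, which encodes stem cell factor, was at 51.6 ± 11 CPM in TAA+celecoxib spleens, 65 ± 20.2 CPM in TAA spleens and 52.5 ± 5.12 CPM in control spleens, with overlapping groups.

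Histamine handling was sparsely expressed: of 7 genes for breakdown, transport and receptors, 4 were tested, with medians of 0.13 and 0.02. Slc22a3, a transporter that takes up histamine and other amines, was, in CPM, at 3.92, 1.82 and 2.31 in TAA+celecoxib, 1.42, 1.58 and 0.94 in TAA, and 4.01, 2 and 3.47 in control. Like Hdc it was lowest in TAA, and for Slc22a3 the TAA group overlapped neither other group (log2 fold change -1.27 ± 0.41 against control, adjusted p = 0.788 by edgeR). Slc18a2, which loads histamine into vesicles, was at 8.91 ± 0.471 CPM in TAA+celecoxib spleens, 7.79 ± 0.668 CPM in TAA spleens and 7.27 ± 1.88 CPM in control spleens.

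**Figure D4:**
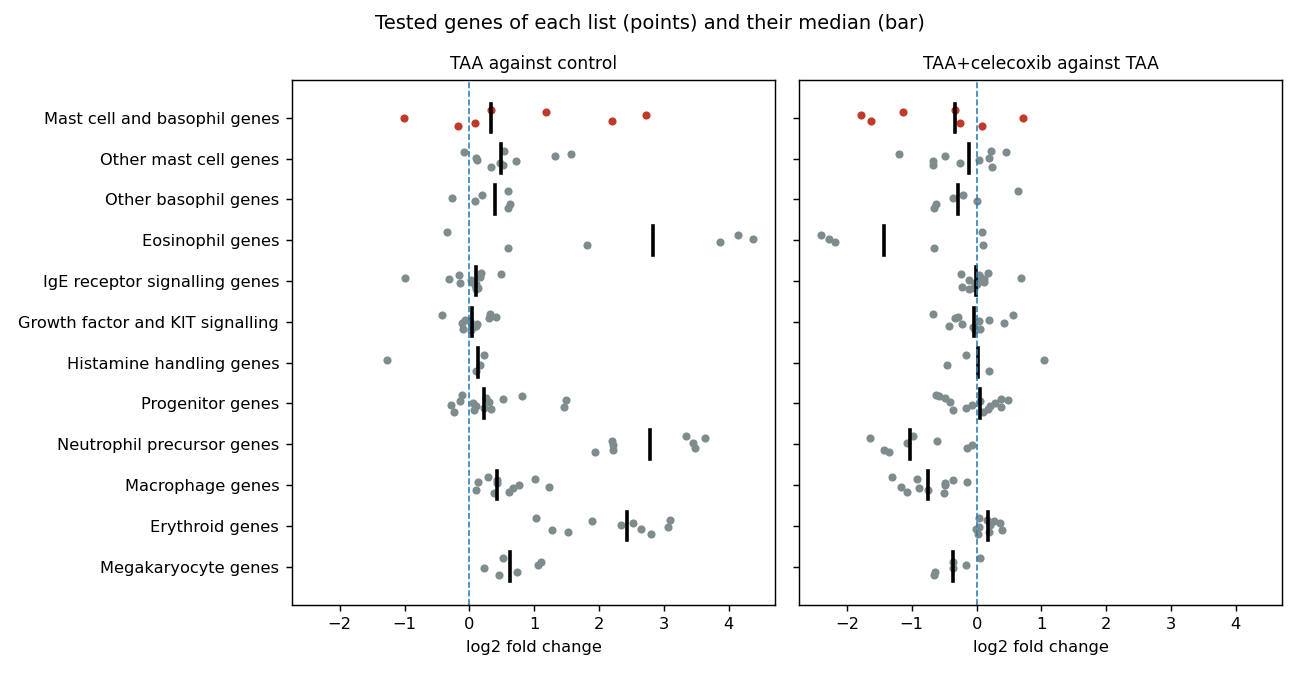
Log2 fold change (horizontal axis) of each tested gene, one row per list, with the median as a bar and the median of all genes tested as a dashed line. The members spread from -1.01 to 2.72 in TAA against control, the neutrophil precursor genes from 1.94 to 3.64 (median 2.79) and the progenitor genes from -0.28 to 1.49 (median 0.22).

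Genes of other blood cells were set beside these values, and 0 of them passed an adjusted p of 0.05 by edgeR. All 8 tested neutrophil and granulocyte precursor genes were higher in TAA than in control (median 2.79), and all 8 had TAA above control without overlap, as 6.94% of all genes tested did. Their summed level was 348 to 753 CPM in TAA+celecoxib spleens, 454 to 2140 CPM in TAA spleens and 84.5 to 328 CPM in control spleens. All 10 tested erythroid genes were higher too (median 2.44), but 0 of the 10 had groups without overlap, and their summed levels were 620 to 4920, 515 to 4100 and 175 to 807 CPM. Macrophage genes, at 2090 to 4640 CPM in TAA+celecoxib spleens, 5620 to 7660 CPM in TAA spleens and 2680 to 5290 CPM in control spleens, had summed levels in TAA above those of both other groups. Their mean log2 CPM overlapped (5.73 to 7.19 in TAA+celecoxib, 7.1 to 7.79 in TAA and 6.2 to 7.29 in control). Of the 11, 4 had TAA above control without overlap, against the same 6.94% of all genes. In TAA+celecoxib against TAA, all 11 macrophage genes were lower (median -0.75), 5 of them without overlap, as 5.03% of all genes were. All 8 neutrophil and granulocyte precursor genes were lower too (median -1.02), with 0 of the 8 free of overlap. Of the 10 erythroid genes, 9 were higher (median 0.18). Values highest in TAA were thus not particular to the members. The 15 tested progenitor genes had a median of 0.22 and summed levels of 748 to 1020, 770 to 943 and 723 to 758 CPM. Of these 15, 11 were higher in TAA than in control. TAA lay above control without overlap for 4 of them and below it for 1. The part of any of these cells in the members' differences was not tested.

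Genes of liver, pancreas, fat and mesothelium were measured too. Hepatocyte genes summed to 782 CPM in TAA 1, the library with the highest Cpa3 and Mcpt1, and to 110 CPM in control 1, against 0.114 to 1.47 CPM in the other 7 libraries; without TAA 1 the log2 fold change against control was 2.31 for Cpa3 and 2.04 for Mcpt1. Pancreatic acinar genes summed to 0.76 to 1.24 CPM in TAA+celecoxib spleens, 0.627 to 71.4 CPM in TAA spleens and 0.616 to 5.12 CPM in control spleens. Adipocyte and mesothelium genes overlapped between the groups, at 235 to 292, 196 to 410 and 179 to 379 CPM. Megakaryocyte genes were at 206 to 284 CPM in TAA+celecoxib spleens, 287 to 381 CPM in TAA spleens and 186 to 279 CPM in control spleens, and endothelial genes at 274 to 771, 647 to 1040 and 270 to 854 CPM. All 6 tested megakaryocyte genes were higher in TAA than in control (median 0.63), 3 of them without overlap. In TAA+celecoxib against TAA, 5 of these 6 were lower (median -0.37), 2 of them without overlap.

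**Figure D5:**
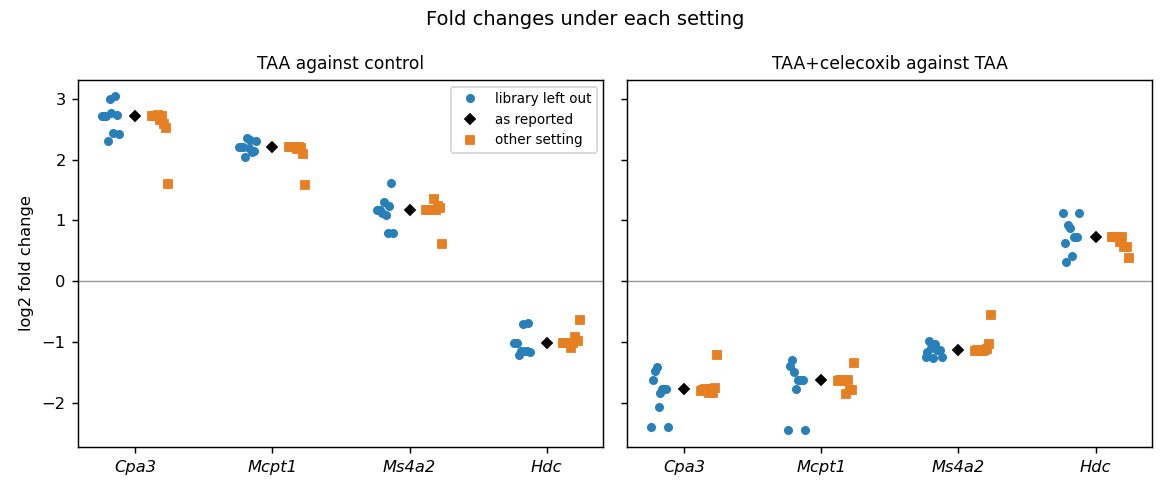
Log2 fold change (vertical axis) of Cpa3, Mcpt1, Ms4a2 and Hdc as reported (diamonds), with libraries left out (circles) and under the other settings (squares). The panels show TAA against control and TAA+celecoxib against TAA, where every value kept the reported sign; in TAA+celecoxib against control, which is not drawn, those of Mcpt1, Ms4a2 and Hdc did not. Cpa3 in TAA against control ran from 1.60 to 3.04, the lowest from log2(FPKM + 1).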

How the data were processed

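Spleen RNA of 9 libraries was analysed from the tables the authors deposited. The authors deposited unnormalised counts of reads for each gene, and also FPKM, which scale counts by gene length and library. HISAT2 2.0.5 and the build mRatBN7.2 are named in the submitters' processing notes; how reads were counted, with which annotation and with what strand option, is not given in the sources used here. Coordinates in the files reach 282724300 on chromosome 1, beyond the last RefSeq gene of GRCr8 there (270492571), so the build of the files is unresolved and coordinates are printed as given.

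Counts were tested with edgeR 4.0.16 in R 4.3.3: TMM scaling, the default filter (minimum count 10, total 15; 15954 genes, 7 of the 9 members) and 1 quasi-likelihood model over the 3 groups and 9 libraries, 2-sided, with Benjamini-Hochberg adjustment over all genes tested. SE is the absolute log2 fold change divided by the root of F. Entries without a rat Ensembl identifier (1525, holding 1.43% to 1.77% of counts) stayed in. With 3 libraries against 3, an exact permutation test cannot go below p = 0.1. Alternatives were RLE scaling, other filters, DESeq2 1.42.0, limma 3.58.1 (voom, and log2 FPKM with a pseudocount of 0.1 or 1), fits of 2 groups, a replicate block and libraries left out. In TAA+celecoxib against control, deviations of same-numbered libraries from their group means correlated at 0.47, 0.18 and 0.34, and those of other pairs at -0.40 to 0.13. The 0.47 is that of TAA+celecoxib 1 with control 1, the 2 libraries that stood apart along principal component 1. The labels give no pairing, and whether the numbers mark pairs was not tested. The edgeR script was tested on simulated data.

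The members, the 15 other gene lists (138 of 145 genes found by symbol) and the rule for named genes were chosen with earlier results of these data known. The rule named all members. Per list it named the 3 genes of smallest p in TAA against control and in TAA+celecoxib against TAA. The text gives a selection of these list genes. The rule also named the 3 genes nearest to Cpa3, Mcpt1, Kit and Gata2, with unnamed entries and placeholder names left out. All 9 members matched RefSeq by symbol.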

Additional observations from a re-analysis of the deposited data

How the results depend on the processing

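The call of 0 genes held under most of the 19 alternatives. DESeq2 called 55 genes in TAA against control, 25 in TAA+celecoxib against TAA and 26 in TAA+celecoxib against control; the cause was not tested. A fit of only the 2 groups called 1 gene in TAA+celecoxib against control. With each library left out in turn, the counts ran from 0 to 1 in TAA against control (1 without TAA+celecoxib 2), 0 to 3 in TAA+celecoxib against TAA (3 without TAA 1) and 0 to 2 in TAA+celecoxib against control (2 without TAA 1). Of the members, only Cpa3 and Mcpt1 in TAA against control gained a call, under DESeq2 alone.

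Small differences changed sign, the cause not being tested. With libraries left out in turn, the log2 fold change in TAA against control ran from -0.07 to 0.84 for Fcer1a and from -0.14 to 0.29 for Gata2. In TAA+celecoxib against TAA it ran from -0.81 to 0.05 for Fcer1a. In TAA+celecoxib against control it ran from -0.25 to 0.91 for Mcpt1, -0.19 to 0.02 for Kit, -0.48 to 0.49 for Fcer1a, -0.33 to 0.49 for Ms4a2, -0.70 to 0.11 for Hdc and -0.39 to 0.04 for Gata2. Without control 1 and TAA+celecoxib 1 together, the values were -0.08 for Fcer1a and -0.16 for Gata2 in TAA against control, 0.06 for Fcer1a in TAA+celecoxib against TAA, and -0.14 for Mcpt1 and -0.45 for Ms4a2 in TAA+celecoxib against control. For Fcer1a in the last comparison log2 FPKM gave 0.01 with a pseudocount of 0.1 and 0.00 with 1. The filter of at least 1 CPM in 3 libraries gave no value for Fcer1a, nor did the fit of 2 groups in that comparison.

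With the replicate number as a block, 0 genes were called in each comparison; the log2 fold change of Cpa3 was 2.58 and that of Mcpt1 2.19 in TAA against control. The block changed no call, while genes at an unadjusted p under 0.05 numbered 1475 in TAA against control, 1287 in TAA+celecoxib against TAA and 1065 in TAA+celecoxib against control, against 957, 812 and 803 without it. Same-numbered libraries correlated at 0.24, -0.02 and 0.19 in TAA against control and at 0.12, -0.21 and 0.03 in TAA+celecoxib against TAA. Not every library correlated best with its own number, and the numbers are not taken as pairs in any comparison. Depth limits Fcer1a (3 to 15 counts) and the tryptase genes (0 to 8 counts) most.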

Other observations

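Proteases related to the mouse basophil protease Mcpt8, chosen after their values were seen, lie on chromosome 15, as Mcpt1 does. Mcpt8l2 was at 3.92, 4.0 and 2.42 CPM in TAA+celecoxib 1 to 3, 4.12, 4.86 and 6.53 CPM in TAA 1 to 3, and 1.97, 3.11 and 2.11 CPM in control 1 to 3. TAA was above both other groups without overlap, with a log2 fold change of 1.11 ± 0.32 (SE) against control (unadjusted p = 0.00739, adjusted p = 0.788 by edgeR). Mcpt8l3 had 7, 4 and 35 counts in TAA+celecoxib, 37, 30 and 92 counts in TAA, and 0, 15 and 24 counts in control. Both belong to 1 family of related genes, so reads could be divided between copies. Prss34, a protease of mouse basophils, had 25, 33 and 17 counts in TAA+celecoxib, 9, 3 and 42 counts in TAA, and 5, 21 and 10 counts in control, and its groups overlapped.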
